A study of Homo sapiens with 12 samples.

Results

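Receptor tyrosine kinases other than the TAM, ErbB and FGF receptors were examined in SNU449 liver cancer cells. The 10 genes, chosen by name, were the receptors MET, MST1R, ROR1, ROR2, DDR1, DDR2, PTK7, INSR and EPHA2 and the MET ligand HGF. Of these, 8 were listed among the 15601 genes of the tables over all 12 libraries, whereas HGF and MST1R had no row and were not analysed here. SNU449 is a human hepatocellular carcinoma line, from which SNU449-Axl- cells had been derived by CRISPR/Cas9 editing of AXL. The 4 groups were untreated SNU449 control cells (genotype WT, naive), Rego-resistant SNU449 cells (SNU449-Rego), untreated SNU449-Axl- control cells and the same knockout cells with Rego resistance (SNU449-Axl- Rego). Both resistant populations had been adapted to Regorafenib, a multikinase inhibitor, by stepwise increases up to 2 times the IC50 and were kept on the drug after each passage. The control cells were untreated, so that acquired resistance and exposure to the drug cannot be told apart in any Rego comparison. The 3 libraries of a group were technical triplicates of 1 population, so that each p-value measures the spread between libraries, and a difference between groups cannot be told apart from one between populations. Whether the Axl- cells came from a single clone is not given in the sources used here.

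Receptor tyrosine kinases span the cell membrane, bind a ligand outside and pass the signal on by phosphorylating tyrosines inside the cell. MET binds hepatocyte growth factor (HGF) and MST1R (RON) its relative MSP, and both drive growth and migration of epithelial and liver cells. ROR1, ROR2 and PTK7 are receptors of Wnt signaling that act largely without beta-catenin, with WNT5A as the best known ligand of the ROR receptors. DDR1 and DDR2 are receptors for collagen, INSR is the insulin receptor, and EPHA2 binds ephrin-A proteins on neighbouring cells. AXL is the TAM receptor for GAS6.

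The promoter windows of the 3 genes with a called change, ROR2, PTK7 and ROR1, are shown because ROR2 shared the direction of both changes called for PTK7, whereas ROR1 went the other way upon loss of Axl. Each is the stretch of 250 bases before the RefSeq start site (GRCh38.p14), written 5′ to 3′ on the strand of the gene, with GC boxes (GGGCGG on either strand) in capitals. The windows lie at chr9:91950229-91950478 on the minus strand for ROR2, at chr6:43076064-43076313 on the plus strand for PTK7 and at chr1:63773767-63774016 on the plus strand for ROR1.
ROR2: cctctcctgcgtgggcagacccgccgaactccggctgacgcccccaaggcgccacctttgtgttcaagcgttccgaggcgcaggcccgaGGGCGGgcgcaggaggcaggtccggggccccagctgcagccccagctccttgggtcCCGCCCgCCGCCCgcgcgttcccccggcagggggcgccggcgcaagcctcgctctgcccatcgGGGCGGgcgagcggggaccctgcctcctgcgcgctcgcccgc
PTK7: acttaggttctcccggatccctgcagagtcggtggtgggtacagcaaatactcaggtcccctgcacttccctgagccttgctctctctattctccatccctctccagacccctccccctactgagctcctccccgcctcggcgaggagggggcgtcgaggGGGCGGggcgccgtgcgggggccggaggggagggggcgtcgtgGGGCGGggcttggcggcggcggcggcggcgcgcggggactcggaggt
ROR1: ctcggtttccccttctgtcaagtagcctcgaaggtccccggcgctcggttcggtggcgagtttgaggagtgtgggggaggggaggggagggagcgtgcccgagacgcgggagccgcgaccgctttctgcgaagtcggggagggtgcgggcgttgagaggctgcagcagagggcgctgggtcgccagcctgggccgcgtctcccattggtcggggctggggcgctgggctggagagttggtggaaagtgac
ROR2 held 4 GC boxes, PTK7 held 2 and ROR1 held 0, and such a box occurs in 42.6% of the 35116 RefSeq windows of this length. All of the 3 windows are rich in CG, with 32, 24 and 24 CG dinucleotides against a median of 11. The letters TATAAA (in 10.7% of all windows) and TGANTCA (in 6.57%), searched on both strands, were found in none of the 3. These matches describe the letters of the windows only.

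The deposited tables give 1 library value per gene, a rounded power of 2 whose exponent is the variance-stabilized expression level without the preparation effect. The lowest value in any table is 12, which compresses the fold changes of genes with few reads. Groups were compared on log2(value + 1) in limma over all 15601 genes, with a block for the replicate number, and a change was called at an adjusted p under 0.05 (Benjamini-Hochberg). The depth per library is unknown, and mean normalized counts added up to 4.16e+06 to 4.92e+06 in a table. AXL fell by 4.29 on the log2 scale from control to Axl- control cells (standard error 0.235, limma adjusted p = 2.16e-09), and it fell by 4.52 in the resistant cells (limma adjusted p = 1.27e-09). Its library values in the SNU449-Axl- groups were 33 to 53, near the low end of the scale, so that both falls are compressed. Of the hepatocyte markers, 4 of 10 were listed, with mean normalized counts of 1.14 to 17.0 and no row for albumin, whereas 6 of 6 mesenchymal markers were listed at 141 to 18945. Of the epithelial markers 2 of 5 were listed, the keratins KRT8 at 267 and KRT18 at 1092. Scaling every library to its spike-in RNAs (spike-in centring) put the median log2 fold change of all genes at 0.189 upon loss of Axl in control cells, 0.344 in resistant cells and 0.185 for Rego in SNU449-Axl- cells.

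MET was by far the most abundant of the 8 genes, with a mean normalized count of 922 over the 12 libraries, above 95.3% of all genes. DDR1 followed with 337, EPHA2 with 179, PTK7 with 76.8, INSR with 61.9, ROR1 with 31.6, ROR2 with 16.5 and DDR2 with 2.14. QuantSeq reads come from the 3′ end of a transcript, so that these counts are not divided by transcript length. Between the groups, ROR2 had the widest span of the 8, 1.52 on the log2 scale (above 97.7% of all genes), followed by ROR1 with 1.11, PTK7 with 1.07 and DDR1 with 0.956. The means of INSR, MET, DDR2 and EPHA2 lay within 0.450, 0.433, 0.424 and 0.286, respectively.

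Upon Rego resistance in SNU449, ROR2 and PTK7 fell, 2 of the 8 genes, where 7.81% of all genes were called and 3.50% were called lower. In SNU449-Axl- cells, ROR2 rose, 1 of 8 with 4.35% of all genes called and 2.54% called higher. Loss of Axl in control cells went with lower ROR2 and PTK7 and higher ROR1, 3 of 8 with 7.45% of all genes called, 3.43% lower and 4.03% higher. In Rego-resistant cells it went with higher ROR2, 1 of 8 with 4.37% of all genes called and 2.44% called higher. The Rego effect differed between the backgrounds for ROR2, 1 of 8 with 5.87% of all genes called and 2.92% called in its direction. The median log2 fold change of the 8 genes was 0.25, 0.01, 0.08, -0.03 and 0.01 in these comparisons, in this order, and between -0.01 and 0.01 over all genes.

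**Figure D1:**
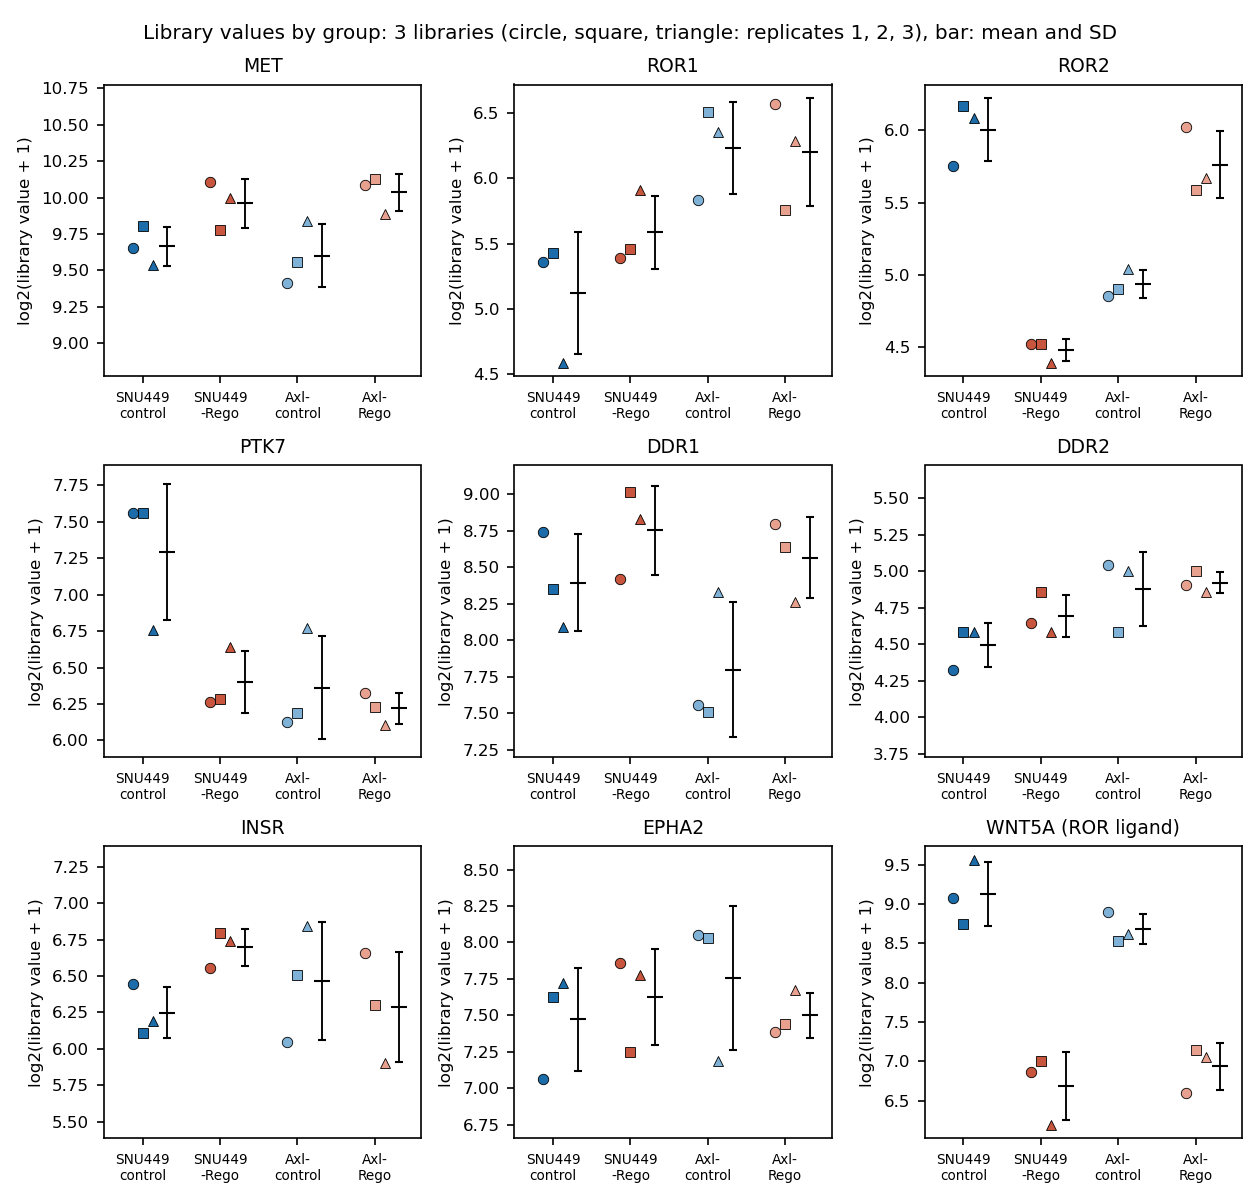
Library values of the 8 genes and WNT5A, as log2(value + 1) on the vertical axis, in the 4 groups, with 1 symbol per library (circle, square and triangle for replicates 1, 2 and 3) and the mean with SD (n = 3) beside them. ROR2 is high in SNU449 control and SNU449-Axl- Rego cells and low in the other groups, whereas the libraries of MET lie between 681 and 1119 throughout.

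ROR2 (ENSG00000169071.15, chromosome 9 of GRCh38, 91563091 to 91950228, minus strand) had the clearest pattern of the 8 genes. Its library values were 53, 71 and 67 in SNU449 control cells, 22, 22 and 20 in SNU449-Rego cells, 28, 29 and 32 in SNU449-Axl- control cells and 64, 47 and 50 in SNU449-Axl- Rego cells. No library of the low groups reached any library of the high groups, and the SNU449-Rego libraries lay below those of the SNU449-Axl- control cells. In single comparisons, 27.9% to 29.1% of all genes were likewise separate in either direction. The high groups, SNU449 control and SNU449-Axl- Rego cells, overlapped in their libraries. In these bulk libraries, fewer cells that express a gene and less RNA per cell cannot be told apart.

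With Rego resistance, ROR2 fell by 1.52 in SNU449 on the log2 scale (standard error 0.190, 95% confidence interval -1.92 to -1.13, limma adjusted p = 4.87e-05). In SNU449-Axl- cells it moved the other way and rose by 0.82 (standard error 0.190, 95% confidence interval 0.42 to 1.22, limma adjusted p = 0.0180). The difference of both Rego effects, SNU449 minus SNU449-Axl-, was -2.35 (standard error 0.269, 95% confidence interval -2.91 to -1.78, limma adjusted p = 3.82e-05). Loss of Axl had opposite signs in the 2 states, with a fall by 1.07 in control cells (standard error 0.190, limma adjusted p = 0.00184) and a rise by 1.28 in Rego-resistant cells (standard error 0.190, limma adjusted p = 0.000499). These 5 contrasts are made from the same 4 groups and are not independent of each other. The SNU449-Rego libraries, with 22, 22 and 20, lay at the low end of the scale, where fold changes are compressed. The SNU449-Axl- control libraries, with 28, 29 and 32, lay near it, so that these sizes and intervals are compressed too. Without any single library, all calls were kept but the one in SNU449-Axl- cells, which was lost without SNU449-Axl- control library 1 (0.77, limma adjusted p = 0.0695) or 2 (0.80, limma adjusted p = 0.0984) and without SNU449-Axl- Rego library 1 (0.64, limma adjusted p = 0.136). In the tables of the pairs, whose lowest values are higher, all of the calls between groups were kept, but the rise in SNU449-Axl- cells was 0.54 (limma adjusted p = 0.0159) and that upon loss of Axl in resistant cells 0.72 (limma adjusted p = 0.00108).

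Few genes had all 5 calls of ROR2. Of the 15601 genes, 40 were called in all 5 comparisons, and 28 of them (0.179% of all genes), ROR2 included, had its directions. A further 11 genes had the 5 opposite directions. A gene that missed any of these thresholds was not counted, so that genes with a similar pattern can be more numerous.

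The level in counts could be recovered from the authors' means for genes listed in enough tables, since the mean of a table over a pair of groups is the average of both groups. Solving these means gave a mean normalized count of ROR2 of 36.9 in SNU449 control, 0 in SNU449-Rego, 3.56 in SNU449-Axl- control and 25.4 in SNU449-Axl- Rego cells. The solution allows no value below 0 and has no replicate error, so that no fold is given against SNU449-Rego cells. From SNU449-Axl- control to SNU449-Axl- Rego cells the solved counts rose 7.14-fold, against 1.77-fold in the fit. Over 7542 genes that were listed in all 7 tables used and well expressed in each, the solved values met the deposited means with a median largest misfit of 0.0271%. ROR2 was not among these genes. For ROR2, which was listed in 6 of the 7 tables used, the misfit was 0.0766%.

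**Figure D2:**
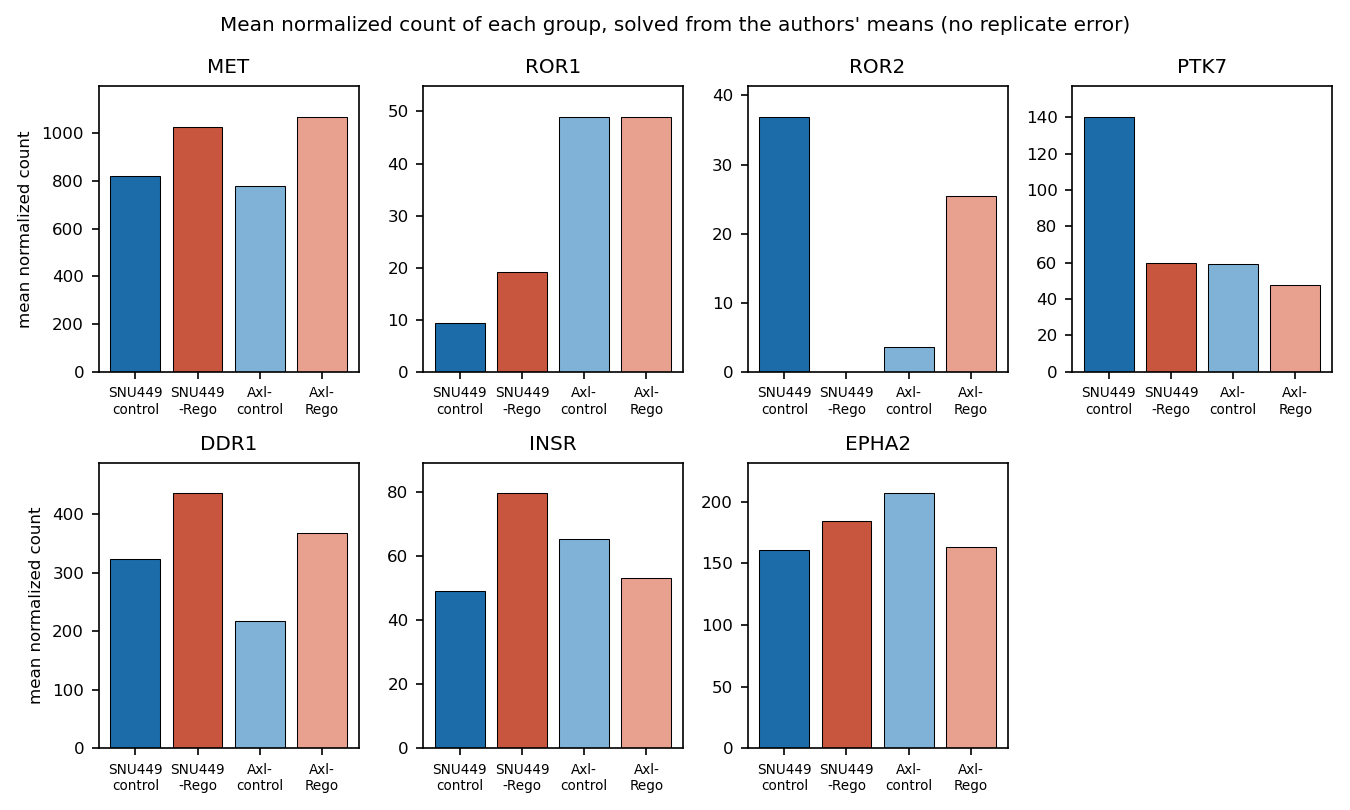
Mean normalized count of each group (vertical axes from 0, different in each panel), solved from the authors' means over the tables for the 7 genes that allow it and without replicate error. ROR2 goes from 36.9 in SNU449 control to 0 in SNU449-Rego cells, while ROR1 is highest in both SNU449-Axl- groups, at 49.0 and 48.9.

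ROR1 (ENSG00000185483.13, chromosome 1 of GRCh38, 63774017 to 64181498, plus strand), the paralog of ROR2, was higher in SNU449-Axl- than in SNU449 control cells. Its library values were 40, 42 and 23 in SNU449 control, 41, 43 and 59 in SNU449-Rego, 56, 90 and 81 in SNU449-Axl- control and 94, 53 and 77 in SNU449-Axl- Rego cells. All SNU449-Axl- control libraries lay above all SNU449 control libraries, where 27.9% of all genes were separate in either direction, whereas the resistant groups overlapped. ROR1 rose by 1.11 upon loss of Axl in control cells (standard error 0.270, 95% confidence interval 0.54 to 1.68, limma adjusted p = 0.0157). In the resistant cells the difference was 0.62 (95% confidence interval 0.05 to 1.18, limma adjusted p = 0.227), which passed the threshold at 0.95 with spike-in centring (limma adjusted p = 0.0294), where the median of all genes lies at 0.344. The Rego effects were 0.46 in SNU449 (limma adjusted p = 0.350) and -0.03 in SNU449-Axl- cells (limma adjusted p = 0.974, and 0.15 with spike-in centring), and neither passed the test. The call rested on single libraries, since it was lost without SNU449 control library 3 (0.75, limma adjusted p = 0.103) and without SNU449-Axl- control library 2 (0.93, limma adjusted p = 0.123) or 3 (1.02, limma adjusted p = 0.0816). The solved mean normalized counts were 9.36, 19.2, 49.0 and 48.9 in the order of the groups above. Between the control groups they rose 5.23-fold, against 2.16-fold in the fit. At such low counts the sizes and intervals of ROR1 are compressed.

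PTK7 (ENSG00000112655.16, chromosome 6 of GRCh38, 43076307 to 43161719, plus strand) is a Wnt co-receptor with an inactive kinase domain and had its highest values in SNU449 control cells. The libraries had 188, 188 and 107 there, 76, 77 and 99 in SNU449-Rego, 69, 72 and 108 in SNU449-Axl- control and 79, 74 and 68 in SNU449-Axl- Rego cells. One SNU449 control library, with 107, was lower than the other two and lay just below one SNU449-Axl- control library, with 108. PTK7 fell by 0.89 with Rego resistance in SNU449 (standard error 0.243, limma adjusted p = 0.0288) and by 0.93 upon loss of Axl in control cells (standard error 0.243, limma adjusted p = 0.0242). Both calls share the SNU449 control libraries. In SNU449-Axl- cells the Rego effect was -0.14 (95% confidence interval -0.65 to 0.37, limma adjusted p = 0.811), and in resistant cells the difference upon loss of Axl was -0.18 (95% confidence interval -0.69 to 0.33, limma adjusted p = 0.764). With spike-in centring both of these values changed sign, to 0.04 and 0.15. The difference of the Rego effects, -0.75, did not pass the test (limma adjusted p = 0.232). The solved mean normalized counts were 140 in SNU449 control, 59.8 in SNU449-Rego, 59.3 in SNU449-Axl- control and 47.6 in SNU449-Axl- Rego cells.

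Both PTK7 calls depended on the libraries and the table. The fall with Rego was lost without SNU449 control library 1 or 2 (-0.72 and -0.71, limma adjusted p = 0.143 and 0.176) and without SNU449-Rego library 1 or 2 (-0.81 and -0.82, limma adjusted p = 0.118 and 0.122). The fall upon loss of Axl was lost without SNU449 control library 1 or 2 (-0.75 for both, limma adjusted p = 0.137 and 0.141) and without SNU449-Axl- control library 1 or 2 (-0.77 and -0.82, limma adjusted p = 0.116 and 0.141). In the tables of the pairs of groups neither was called with the replicate block (-0.70, limma adjusted p = 0.0909, and -0.76, limma adjusted p = 0.108), and both were called without it (limma adjusted p = 0.0377 and 0.0474). With spike-in centring the second was not called (-0.75, limma adjusted p = 0.0659). Across the 12 libraries ROR2 and PTK7 had a Pearson r of 0.452 and ROR1 and PTK7 one of -0.415, given as a description of libraries that share group and preparation.

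**Figure D3:**
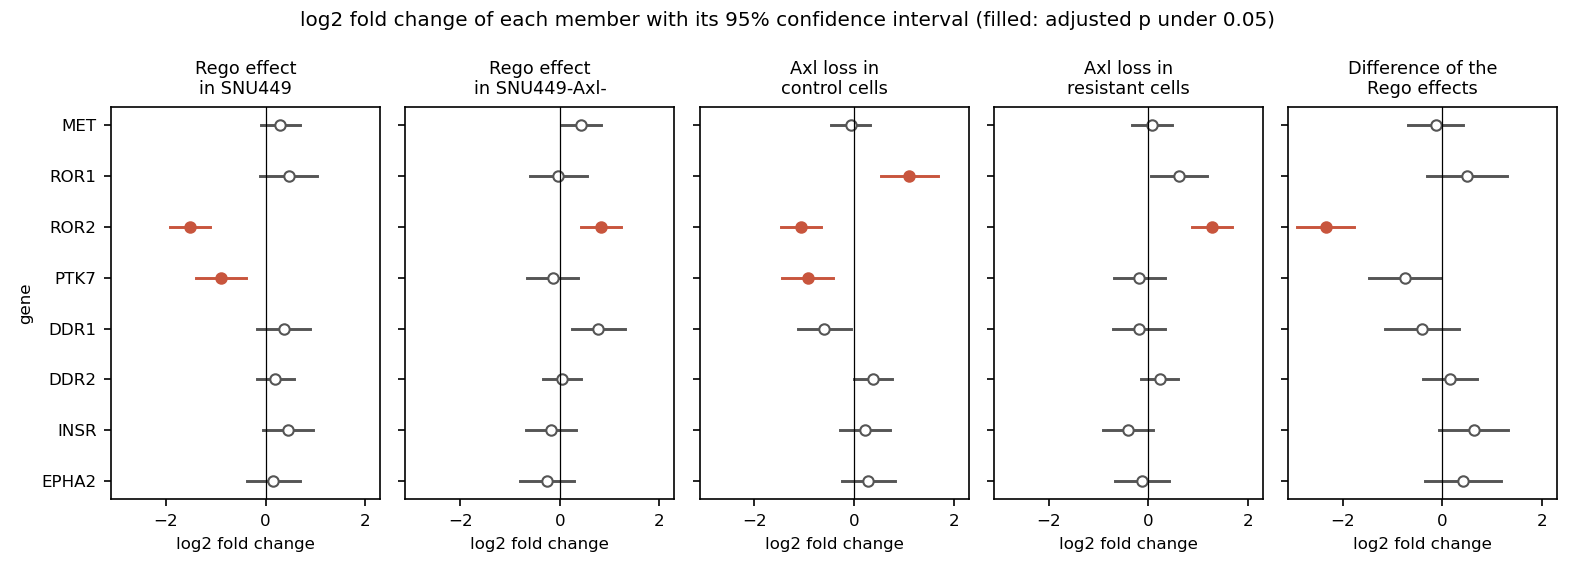
log2 fold change (horizontal axis) of the 8 genes in the 4 comparisons and in the difference of both Rego effects, with 95% confidence intervals from limma (filled red symbols for an adjusted p under 0.05). ROR2 is called in each panel and changes side between the backgrounds, whereas every interval of EPHA2 spans 0.

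Of 23 ligands, co-receptors and effectors of ROR and PTK7 signaling, 20 were tested. With Rego resistance in SNU449, 1 was higher and 3 were lower, where 7.81% of all genes were called. In SNU449-Axl- cells 1 was lower, where 4.35% of all genes were called. Upon loss of Axl, 1 was higher in control cells, where 7.45% of all genes were called. In resistant cells 0 were called by limma (2 with spike-in centring), with 1 of the 20 at an unadjusted p under 0.05, where 18.2% of all genes were. The ligand WNT5A had library values of 540, 428 and 755 in SNU449 control and 115, 127 and 72 in SNU449-Rego cells, and 475, 369 and 392 in SNU449-Axl- control and 96, 141 and 132 in SNU449-Axl- Rego cells. All resistant libraries thus lay below all control libraries, in both backgrounds. In either direction, 27.9% of all genes in SNU449 and 29.1% in SNU449-Axl- cells were likewise separate. WNT5A fell by 2.45 in SNU449 (standard error 0.252, limma adjusted p = 5.81e-06) and by 1.75 in SNU449-Axl- cells (standard error 0.252, limma adjusted p = 0.000431), and the difference of these effects, -0.70, did not pass the test (limma adjusted p = 0.297). The ligand therefore fell in both backgrounds, while its receptor ROR2 fell in SNU449 and rose in SNU449-Axl- cells.

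Among the other partners, the Frizzled receptor FZD2 rose in SNU449 with Rego resistance by 0.93 (limma adjusted p = 0.00212) and upon loss of Axl in control cells by 0.98 (limma adjusted p = 0.00183). In SNU449-Axl- cells its Rego effect was -0.40 (limma adjusted p = 0.217), and the difference of the Rego effects was 1.33 (limma adjusted p = 0.00308). FZD2 was abundant, with library values from 1265 to 2962. The planar polarity gene PRICKLE2 fell by 1.21 in SNU449 with Rego resistance (limma adjusted p = 0.00964), a call that was lost without SNU449 control library 1 or 2 or SNU449-Rego library 3 (highest limma adjusted p = 0.0892). In SNU449-Axl- cells its value was -0.79 (limma adjusted p = 0.115).

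MET (ENSG00000105976.16, chromosome 7 of GRCh38, 116672196 to 116798377, plus strand) did not pass the test in any comparison. Its library values were 806, 893 and 743 in SNU449 control, 1102, 875 and 1021 in SNU449-Rego, 681, 751 and 914 in SNU449-Axl- control and 1086, 1119 and 947 in SNU449-Axl- Rego cells. The means of the resistant groups were the higher ones in both backgrounds. In SNU449 one resistant library, with 875, fell within the control libraries, and in SNU449-Axl- cells all resistant libraries lay above all control libraries. Such a separation in either direction was seen for 2 of the 8 genes in the latter comparison and for 29.1% of all genes. The log2 fold change with Rego resistance was 0.29 in SNU449 (95% confidence interval -0.10 to 0.69, limma adjusted p = 0.397) and 0.43 in SNU449-Axl- cells (95% confidence interval 0.04 to 0.82, limma adjusted p = 0.212). In the table of the pair without the replicate block, the latter passed the threshold at 0.38 (limma adjusted p = 0.0490).

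Upon loss of Axl, MET differed by -0.06 in control cells (95% confidence interval -0.46 to 0.33, limma adjusted p = 0.893, and 0.12 with spike-in centring) and by 0.07 in resistant cells (95% confidence interval -0.32 to 0.47, limma adjusted p = 0.882, and 0.41 with spike-in centring). On the scale as deposited, the intervals leave room for a change of up to 1.77-fold in SNU449-Axl- cells upon Rego resistance. For loss of Axl in control cells they leave room for at most 1.37-fold in either direction. With spike-in centring the Rego effect in SNU449-Axl- cells was 0.61 (limma adjusted p = 0.0864), where the median of all genes lies at 0.185. The difference of the Rego effects was -0.14 (95% confidence interval -0.69 to 0.41, limma adjusted p = 0.837). The solved mean normalized counts were 818, 1024, 777 and 1069 in SNU449 control, SNU449-Rego, SNU449-Axl- control and SNU449-Axl- Rego cells.

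Of 29 proteases, inhibitors, co-receptors and adaptors around HGF, MET and MST1R, 22 were tested, and the MST1R ligand MST1, the activators HGFAC, HPN and ST14 and the inhibitors SPINT1 and SPINT2 were among the 7 without a row. With Rego resistance in SNU449, 1 was higher and 2 were lower, where 7.81% of all genes were called. Loss of Axl in control cells had 1 higher and 1 lower, where 7.45% of all genes were called. For Rego resistance in SNU449-Axl- cells and for loss of Axl in resistant cells 0 were called by limma, with 4 and 6 at an unadjusted p under 0.05, where 18.6% and 18.2% of all genes were. With spike-in centring 1 and 4 were called in these comparisons and 4 upon loss of Axl in control cells. LRIG1, which promotes degradation of MET and other receptors, rose by 1.07 in SNU449-Rego cells (library values 34, 45 and 48 in control and 86, 97 and 85 in resistant cells, limma adjusted p = 0.00207). It also rose by 0.97 upon loss of Axl in control cells (limma adjusted p = 0.00530). The phosphatase PTPN1, which acts on MET and on the insulin receptor, fell by 1.11 with Rego resistance in SNU449 (limma adjusted p = 0.00169) and by 1.02 upon loss of Axl in control cells (limma adjusted p = 0.00393). The plasminogen activator PLAT fell by 0.90 in SNU449-Rego cells (limma adjusted p = 0.00815), which was lost without SNU449 control library 1 or SNU449-Rego library 1 (highest limma adjusted p = 0.0694).

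The genes that followed MET most closely were taken by the Pearson correlation of the library values over the 12 libraries. They were sought among 6280 genes whose group means spanned at least 0.5 on the log2 scale. MET itself spanned 0.433, so that genes with a span as narrow as its own were not compared. They were the unnamed gene ENSG00000273132 (r = 0.912), the amino acid transporter SLC7A2 (r = 0.906), ARHGAP24 (r = 0.903), ACBD5 (r = 0.888) and KDSR (r = 0.879). The libraries share group and preparation, and of the 8 genes DDR1 was nearest to MET (r = 0.662).

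DDR1 (ENSG00000204580.14, chromosome 6 of GRCh38, 30876421 to 30900156, plus strand) did not pass the test in any comparison. Its library values were 428, 325 and 271 in SNU449 control, 341, 516 and 454 in SNU449-Rego, 187, 181 and 321 in SNU449-Axl- control and 444, 398 and 306 in SNU449-Axl- Rego cells. The SNU449-Axl- control cells had the lowest mean, although one of their libraries, with 321, reached the range of SNU449 control and SNU449-Axl- Rego cells. The Rego effect was 0.77 in SNU449-Axl- cells (standard error 0.253, 95% confidence interval 0.24 to 1.30, limma adjusted p = 0.0952), which passed the threshold at 0.95 with spike-in centring (limma adjusted p = 0.0241) and at 0.77 without the replicate block (limma adjusted p = 0.0496). In SNU449 it was 0.36 (limma adjusted p = 0.450). Loss of Axl gave -0.60 in control cells (limma adjusted p = 0.174) and -0.19 in resistant cells (limma adjusted p = 0.762, and 0.14 with spike-in centring). The solved mean normalized counts were 324, 436, 218 and 368 in the order of the groups above.

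DDR2 (ENSG00000162733.19, chromosome 1 of GRCh38, 162631373 to 162787405, plus strand), a fibrillar collagen receptor of mesenchymal cells, was near the floor of the scale, with library values from 19 to 32 and a mean normalized count of 2.14. It was listed in 1 of the 6 tables of pairs, and no group count could be solved. None of the 4 comparisons passed the test, with log2 fold changes from 0.05 to 0.38. The highest upper bound of their 95% confidence intervals, upon loss of Axl in control cells, was 0.76. So near the floor these sizes and bounds are compressed and set no limit to a change in counts.

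Of 22 collagens and other partners of the DDR receptors, 19 were tested. With Rego resistance 1 was higher in SNU449 and 3 were lower in SNU449-Axl- cells, and upon loss of Axl 4 were higher in control cells, while 1 was higher and 2 were lower in resistant cells. Over all genes, 7.81%, 4.35%, 7.45% and 4.37% were called in these comparisons, in this order. COL5A2, a chain of type V collagen, had values of 792, 752 and 599 in SNU449 control, 1164, 1335 and 1292 in SNU449-Rego, 1438, 1359 and 1279 in SNU449-Axl- control and 619, 602 and 829 in SNU449-Axl- Rego cells. It rose by 0.83 in SNU449 (limma adjusted p = 0.0103, lost without SNU449 control library 3 or SNU449-Rego library 2 at up to 0.0614) and fell by 1.004 in SNU449-Axl- cells (limma adjusted p = 0.00477). The second call was lost without SNU449-Axl- Rego library 1 or 2 (highest limma adjusted p = 0.0584). The difference of these effects was 1.83 (limma adjusted p = 0.000499), opposite in sign to that of ROR2. COL1A1, a chain of type I collagen, varied widely between libraries, from 44 to 363 in SNU449 control and from 498 to 2380 in SNU449-Axl- control cells, and rose by 3.14 between them (limma adjusted p = 0.00361), or by 1.95, still called, without SNU449 control library 3. COL6A1 rose upon loss of Axl by 1.87 in control cells (limma adjusted p = 3.06e-05) and by 1.34 in resistant cells (limma adjusted p = 0.00120).

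INSR (ENSG00000171105.14, chromosome 19 of GRCh38, 7112255 to 7294414, minus strand) did not pass the test in any comparison. Its library values were 86, 68 and 72 in SNU449 control and 93, 110 and 106 in SNU449-Rego cells, which do not overlap, while 27.9% of all genes and 3 of the 8 were likewise separate in this comparison. The log2 fold change was 0.45 (95% confidence interval -0.04 to 0.94, limma adjusted p = 0.288), and it passed the threshold in the table of the pair without the replicate block, at 0.35 (limma adjusted p = 0.0441). In SNU449-Axl- cells, with values from 65 to 114 in control and from 59 to 100 in resistant cells, it was -0.18 (limma adjusted p = 0.752, and 0.00 with spike-in centring). The difference of both Rego effects was 0.63 (95% confidence interval -0.07 to 1.33, limma adjusted p = 0.322). Loss of Axl gave 0.22 in control cells (limma adjusted p = 0.661) and -0.41 in resistant cells (limma adjusted p = 0.387).

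Of 20 ligands and partners of INSR, 16 were tested, and the ligands INS, IGF1 and IGF2 were among those without a row. With Rego resistance 2 were higher and 2 lower in SNU449, and 2 were higher and 1 lower in SNU449-Axl- cells. Of all genes, 7.81% and 4.35% were called in these comparisons. The adaptor IRS2, which carries the insulin signal to PI3K, had values of 757, 792 and 706 in SNU449 control and 1535, 1382 and 1860 in SNU449-Rego cells and rose by 1.07 (limma adjusted p = 0.00174). In SNU449-Axl- cells it rose from 1422, 1246 and 999 to 2020, 2449 and 2543, by 0.94 (limma adjusted p = 0.00869), which was lost without SNU449-Axl- control library 3 or SNU449-Axl- Rego library 2 or 3 (highest limma adjusted p = 0.0728). GRB10, an inhibitory adaptor of the insulin receptor, rose by 1.56 in SNU449 (limma adjusted p = 0.00170) and by 1.17 in SNU449-Axl- cells (limma adjusted p = 0.0242). The second of these calls was lost without 5 of the 12 libraries, namely SNU449-Axl- control library 1 or 3 or any SNU449-Axl- Rego library. Neither IRS2 nor GRB10 passed the test of a difference between the Rego effects (0.13 and 0.40, limma adjusted p = 0.858 and 0.652). The related receptor IGF1R fell by 0.95 in SNU449 with Rego resistance (limma adjusted p = 0.0284), which was lost without SNU449 control library 1 or 2 or SNU449-Rego library 2 or 3 (highest limma adjusted p = 0.183).

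EPHA2 (ENSG00000142627.13, chromosome 1 of GRCh38, 16124337 to 16156069, minus strand) had the narrowest span of the 8 genes. Its library values overlapped in each comparison, from 133 to 210 in SNU449 control, from 151 to 231 in SNU449-Rego, from 145 to 264 in SNU449-Axl- control and from 166 to 203 in SNU449-Axl- Rego cells. The log2 fold changes in the 4 comparisons lay between -0.26 and 0.29, with limma adjusted p from 0.581 to 0.848, and the value upon loss of Axl in resistant cells changed from -0.13 to 0.20 with spike-in centring. Of 16 ligands and partners, 15 were tested, with 1 higher in each Rego comparison, 2 higher upon loss of Axl in control cells and 1 in resistant cells. The shares of all genes called were 7.81% and 4.35% for Rego in SNU449 and SNU449-Axl- cells. For loss of Axl they were 7.45% and 4.37%. The ligand EFNA1 rose by 1.26 in SNU449-Rego cells, from 82, 46 and 58 to 145, 162 and 132 (standard error 0.233, limma adjusted p = 0.00198). It rose by 1.22 upon loss of Axl in control cells (limma adjusted p = 0.00322), and its Rego effect in SNU449-Axl- cells was 0.69 (limma adjusted p = 0.104). VAV3, an exchange factor that binds activated EPHA2, rose by 1.36 in SNU449-Axl- cells with Rego resistance (limma adjusted p = 0.00492), which was lost without SNU449-Axl- control library 2 or SNU449-Axl- Rego library 2 (highest limma adjusted p = 0.0599).

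Receptor tyrosine kinases as a family comprised 58 genes, namely 9 receptors above and 49 others, of which 33 were listed. Among these 33, MET ranked 2 by mean normalized count, after FGFR1 and before EGFR, and ROR2 ranked 19. By the size of the difference between the Rego effects, ROR2 ranked 1, followed by EPHB4 and EPHA7. The floor of the scale compresses some of these sizes, those of ROR2 and EPHA7 among them. Of the 25 others, 2 were higher and 2 lower with Rego resistance in SNU449, and 1 was higher and 1 lower in SNU449-Axl- cells. Loss of Axl had 3 higher and 2 lower in each state, AXL itself included. Over all genes, 7.81% and 4.35% were called in the Rego comparisons. Upon loss of Axl 7.45% were called in control and 4.37% in resistant cells. EPHB4, the receptor of ephrin-B2, had values of 90, 60 and 62 in SNU449 control, 123, 150 and 176 in SNU449-Rego, 113, 129 and 117 in SNU449-Axl- control and 72, 77 and 70 in SNU449-Axl- Rego cells. It rose by 1.08 in SNU449 (limma adjusted p = 0.00283), and the difference of its Rego effects was 1.79 (limma adjusted p = 0.00124), opposite in sign to that of ROR2.

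NTRK3, the receptor of neurotrophin-3, had values of 70, 44 and 64 in SNU449 control cells and of 20, 23 and 21 in each of the other groups. It fell with Rego resistance in SNU449 (limma adjusted p = 0.000112) and upon loss of Axl in control cells (limma adjusted p = 0.000145). No size is given because the equal values of 3 groups mark the floor of the scale. Spread within those groups was set by the floor too, so that these p-values do not rest on measured spread there. ERBB4, the neuregulin receptor, rose by 1.08 in SNU449 (limma adjusted p = 0.000806). Its control values of 23, 23 and 21 lay near that floor, so that 1.08 is no measure of size. FGFR4 rose by 1.03 in SNU449-Axl- cells with Rego resistance (limma adjusted p = 0.00612), a call lost without SNU449-Axl- Rego library 2 (limma adjusted p = 0.0599). EPHA7 fell there by 1.54 (limma adjusted p = 0.000170) and rose by 1.65 upon loss of Axl in control cells (limma adjusted p = 4.86e-05). Its values were 60, 59 and 92 in SNU449-Axl- control cells. In the other groups they were 19 to 26, near the floor, so that 1.54 and 1.65 are no measure of size. FGFR1 rose upon loss of Axl in both states, by 1.08 in control cells (limma adjusted p = 0.00424) and by 1.64 in resistant cells (limma adjusted p = 0.000157).

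**Figure D4:**
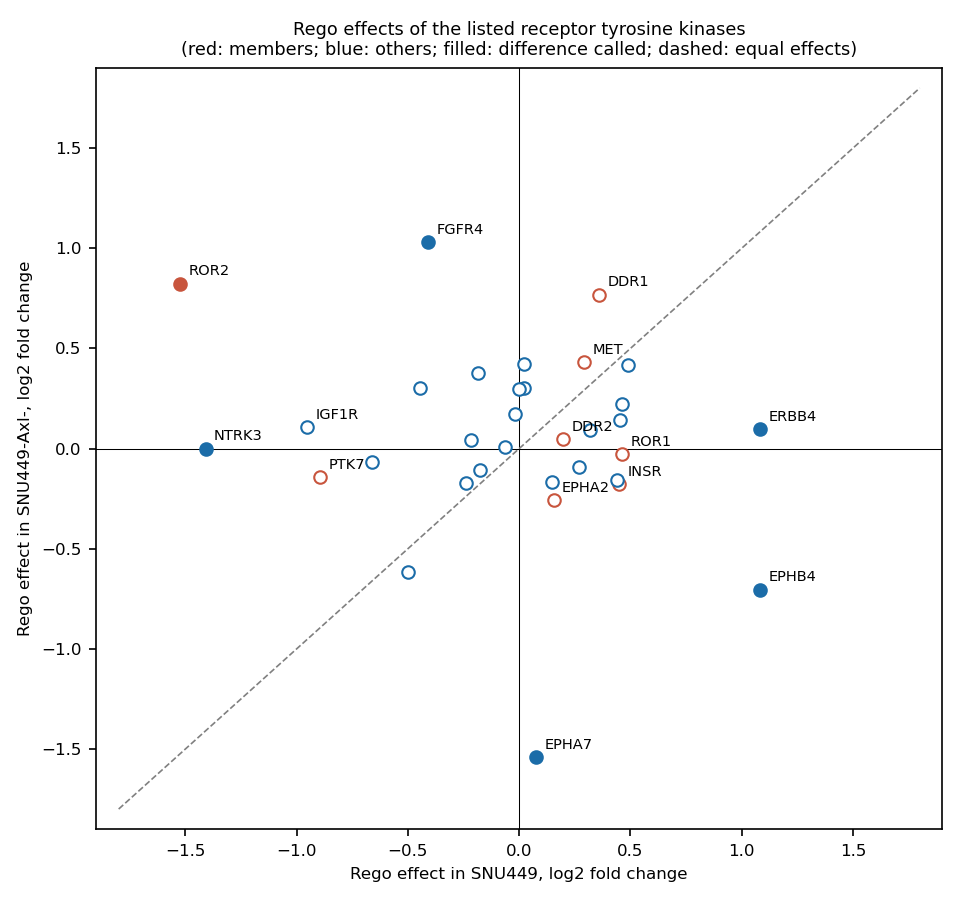
Rego effect in SNU449 (horizontal axis) and in SNU449-Axl- cells (vertical axis), as log2 fold changes, of the 33 listed receptor tyrosine kinases, with the 8 examined genes in red, filled symbols where the difference of both effects was called and a dashed line of equal effects. ROR2 lies at -1.52 and 0.82, farther from that line than any other receptor shown, and MET lies close to it at 0.29 and 0.43.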

How the data were processed

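QuantSeq 3′ mRNA libraries of 4 groups with 3 libraries each were analysed from 8 deposited tables, 6 for pairs of groups and 2 for the whole set of 12 libraries. The authors trimmed reads with cutadapt 4.0, aligned them to GRCh38 with STAR 2.5.3a and ran DESeq2 with a design that held the preparation date. The deposited library values were read as scores, namely rounded powers of 2 of variance-stabilized levels without the preparation effect, and are no counts. The deposited signal of a gene is its mean normalized count over the libraries of a table, as made by the authors. Further columns hold the fold changes and p-values of the authors' own comparisons and were not used. Depth per library is unknown, so that no interval that needs it is given.

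Groups were compared with limma 3.58.1 in R 4.3.3 (lmFit, contrasts.fit, eBayes with trend) on log2(value + 1), in the table over 12 libraries that compares the backgrounds. Spike-in RNAs were left out, and a minimum mean value of 5 removed no gene. The study's methods put the preparation date in the design, and the number of a library stood in for it as a block. In the deposited values the means by number differed by a median of at most 0.00128, against a median library deviation of 0.124, so that the effect the authors removed followed this number. After that removal, deviations of same-numbered libraries had correlations of -0.542 to 0.0263. The fit was tested on simulated data. Group means in counts were solved from the authors' means by regression and non-negative least squares (Python 3.11.15). The 10 genes and the partner lists were chosen with earlier results of these data known. The rule for named genes took all 10, AXL, up to 2 called genes per list, direction and comparison, and the 5 genes most correlated with MET. Those most correlated with ROR2 and the solved counts were added after its values were seen. Promoter windows come from RefSeq (GRCh38.p14), and 3 of the 3 genes shown were matched by symbol. Alternatives were no block, the tables of pairs, the other table over 12 libraries, a pseudocount of 0, a mean normalized count of at least 10, 2 other scalings and leaving out each library. A block within control and within resistant cells was chosen after seeing the data.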

Additional observations from a re-analysis of the deposited data

Results flagged for a closer look

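The Rego effect differed between SNU449 and SNU449-Axl- cells for ROR2, by -2.35 on the log2 scale (limma adjusted p = 3.82e-05). ROR2 was lower in 3 of 3 resistant libraries of SNU449 and higher in 3 of 3 of SNU449-Axl- cells than in all of the respective control libraries. In either direction, 27.9% of all genes in SNU449 and 29.1% in SNU449-Axl- cells were likewise separate. The same test, on the same 12 libraries, was passed by 12 of the named partners and other receptors. These were named because a comparison called them, this test included, so that their number is no result. By list, 5 of the 25 other receptors passed it, and 2 of 22 partners of MET, 1 of 20 of ROR and PTK7 and 3 of 19 of the DDR receptors. Of the partners of INSR 0 of 16 passed and of those of EPHA2 1 of 15, where 5.87% of all genes did. The Rego effect was higher in SNU449 for COL1A1 (by 4.76), COL11A1 (by 3.05), COL5A2 (by 1.83), EPHB4 (by 1.79), EPHA7 (by 1.62), LRIG1 (by 1.36), FZD2 (by 1.33) and ERBB4 (by 0.99). It was lower in SNU449 for VAV3 (-1.52), FGFR4 (-1.44), NTRK3 (-1.41) and PLAT (-1.19). The value of NTRK3 is set by the floor of the scale in 3 of the 4 groups and is no measure of size. The same holds for EPHA7 and COL11A1, each near the floor in 3 of the 4 groups, and for ERBB4, near it in SNU449 control cells. For ROR2 the size is compressed, with SNU449-Rego cells near the floor. The call of ERBB4 was lost with spike-in centring (0.84, limma adjusted p = 0.137) and without 6 of the 12 libraries (highest limma adjusted p = 0.0833), and those of VAV3 and PLAT were lost without 4 of the 12 libraries each.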

How the results depend on the processing

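The technical triplicates, the unknown depth and the floor of the scale limit these results, and the cause of the changes below was not tested. ROR2 kept direction and call in every alternative but 3 left-out libraries for Rego in SNU449-Axl- cells. Without the replicate block, calls over all genes went from 1219 to 2175 for Rego in SNU449, from 678 to 1552 in SNU449-Axl- cells, from 1163 to 2182 for loss of Axl in control cells, from 682 to 1503 in resistant cells and from 916 to 1826 for the difference of the Rego effects. In the tables of pairs without the block they were 2947, 3566, 3750 and 4024, and with it 603, 818, 603 and 1160. With spike-in centring 2343 genes were called for loss of Axl in resistant cells, and the share called higher went from 55.9% to 97.2% there, from 54.0% to 82.7% in control cells, from 58.4% to 88.4% for Rego in SNU449-Axl- cells and from 50.3% to 30.1% for the difference. Of the 8 genes, 1 was called for Rego in SNU449 in the table of the pair with the block. For Rego in SNU449-Axl- cells 2 were called without the block, in the table of the pair without it and with spike-in centring, and for loss of Axl in resistant cells 2 in the latter settings. The block within control and within resistant cells, chosen after seeing the data, changed no call of the 8 genes upon loss of Axl in either state or in the difference of the Rego effects, and it gives no value for the Rego effects in single backgrounds.

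Spike-in centring turned the sign for Rego in SNU449-Axl- cells of ROR1 (0.15), PTK7 (0.036) and INSR (0.0021), upon loss of Axl in control cells of MET (0.12), and in resistant cells of DDR1 (0.14), PTK7 (0.15) and EPHA2 (0.20), of which none was called. Without single libraries, calls over all genes ranged from 740 to 1299, 205 to 891, 540 to 1275, 219 to 826 and 523 to 922 in the 5 comparisons, and calls among the 8 genes from 1 to 2, 0 to 2, 1 to 3, 1 to 1 and 1 to 2. Values that crossed 0 then ranged for Rego in SNU449 from -0.12 to 0.41 in EPHA2, and for Rego in SNU449-Axl- cells from -0.30 to 0.27 in ROR1, -0.16 to 0.17 in DDR2, -0.30 to 0.13 in PTK7 and -0.46 to 0.079 in INSR. Upon loss of Axl they ranged in control cells from -0.22 to 0.061 in MET and -0.037 to 0.50 in INSR, and in resistant cells from -0.048 to 0.17 in MET, -0.41 to 0.016 in DDR1 and -0.38 to 0.027 in EPHA2. The difference of the Rego effects of AXL ranged from -0.043 to 0.51. Of 59 calls of the 25 named partners and other receptors, 36 were kept without each library.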

Other observations

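The genes whose library values followed those of ROR2 most closely were looked for after its values had been seen, in the same way as for MET and among 6279 genes. They were the quinone reductase CRYZ (Pearson r = 0.971 over 12 libraries), NDRG2 (r = 0.948), the fatty acid elongase ELOVL7 (r = 0.946) and the long noncoding RNAs LUCAT1 (r = 0.939) and LINC02340 (r = 0.935). These are descriptions over libraries that share group and preparation. CRYZ was much more abundant than ROR2, with a mean normalized count of 735 against 16.5.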
